A study of Mus musculus with 10 samples.

Results

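Leukocytes leave the blood by a sequence of contacts with the vessel wall, and 10 genes of that sequence were followed here in mouse B16 melanoma tumors. They were chosen by name, as 5 molecules displayed by the vessel wall (Sele, Selp, Icam1, Vcam1 and Pecam1) and 5 carried by leukocytes (Selplg, Itgal, Itgb2, Itga4 and Itgb7), of 18193 genes measured. All probe sets annotated to exactly 1 of these symbols were used, 19 of 34945. The arrays came from 5 tumors labelled Bach2-deficient and 5 labelled wild type (WT). B16 is a transplantable melanoma line of C57BL/6 origin, every tumor was on the C57BL/6 strain background, and Bach2 encodes a transcriptional repressor of lymphocytes. The comparison addresses how the immune content of tumors labelled Bach2-deficient differs from that of tumors labelled WT. The labels give no age, sex, allele or separate animal for a tumor, and do not say whether host cells, tumor cells or both lacked Bach2. Whole tumors were mechanically dissociated before RNA extraction. Fewer cells of a type and less RNA per cell therefore cannot be told apart.

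Selectins start the sequence: E-selectin (Sele) on activated endothelium and P-selectin (Selp) on endothelium and platelets bind glycans on leukocyte PSGL-1 (Selplg), which lets cells roll. Firm arrest follows when the integrin LFA-1, a pair of the Itgal and Itgb2 chains, binds ICAM-1, and when VLA-4, which contains the Itga4 chain, binds VCAM-1. Itga4 also pairs with Itgb7 to form the gut-homing receptor for MAdCAM-1, and PECAM-1 (Pecam1) serves at the passage between endothelial cells. In endothelium, tumor necrosis factor and interleukin-1 induce Sele, Vcam1 and Icam1 through NF-κB, and interferon-γ also induces Icam1. Several of the vessel-wall genes are also expressed elsewhere, Icam1 by leukocytes and other cytokine-exposed cells, Vcam1 by some macrophages and fibroblasts, and Pecam1 by platelets and many leukocytes.

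Promoter sequence was found for 5 of the 10 genes in the RefSeq table (GRCm38.p6), and the 250 bases before the start are shown for Icam1 and Sele, because both are cytokine-inducible and Icam1 rose here while Sele did not pass. Capitals mark matches on either strand to GGNNNTTCC (a form of the NF-κB site) or to GAAANNGAA (a form of the interferon-stimulated response element), and no matches of the 2 kinds overlap in these windows. Icam1 lies on the plus strand, chr9:21015690-21015939, and Sele on the plus strand, chr1:164047984-164048233.
Icam1: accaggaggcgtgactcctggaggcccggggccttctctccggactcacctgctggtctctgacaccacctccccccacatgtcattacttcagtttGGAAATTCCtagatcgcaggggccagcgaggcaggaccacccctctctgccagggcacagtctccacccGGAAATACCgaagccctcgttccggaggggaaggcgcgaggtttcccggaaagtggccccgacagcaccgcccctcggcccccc
Sele: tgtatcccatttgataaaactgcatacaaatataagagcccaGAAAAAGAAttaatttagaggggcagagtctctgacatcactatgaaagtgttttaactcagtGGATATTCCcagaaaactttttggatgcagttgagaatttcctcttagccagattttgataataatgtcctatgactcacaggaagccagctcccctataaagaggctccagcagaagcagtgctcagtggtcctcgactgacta
The Icam1 window held GGAAATTCC beginning 153 bases before the start and GGAAATACC at 84. The Sele window held GAAAAAGAA at 208 bases and GGATATTCC at 145. Among the windows not shown, that of Selp held GGAAAGGCC at 14 bases, and those of Itga4 and Itgb7 held no match. Of all 32851 promoter windows of this length, 15.7% held GGNNNTTCC and 7.13% GAAANNGAA. A match describes letters in the window, and no binding was measured.

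Facts of all arrays bear on what follows. Array medians lay between 5.80 and 5.88 on the log2 scale. The small number of arrays sets the precision. Of the Bach2 probe sets, 1436515_at read 4.70 ± 0.55 in Bach2-deficient tumors and 5.75 ± 0.54 in WT tumors (log2, mean ± SD, n = 5 each; limma adjusted p = 0.0330), and the other 2 did not pass. The brightest of them, 1445460_at, averaged 5.89 in Bach2-deficient and 6.96 in WT tumors (limma adjusted p = 0.0615). The groups overlapped on every Bach2 probe set. Poly-A spike controls, added to RNA before labelling, averaged 10.2 ± 0.104 on Bach2-deficient arrays and 12.2 ± 0.172 on WT arrays (n = 5 each, exact permutation p = 0.00794, the smallest this design gives). The groups thus differed in a control that does not come from the tumors. For every gene below, genotype cannot be told apart from whatever set this difference. Xist, the RNA of the inactive X chromosome of females, was low on 4 Bach2-deficient arrays and high on replicate 2 and on all WT arrays. The mean of 9 melanocyte and B16 markers ran from 11.7 to 12.4 in Bach2-deficient tumors and from 12.2 to 12.4 in WT tumors. Its group means differed by -0.37 (Bach2-deficient minus WT, exact permutation p = 0.0238).

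Of the 10 adhesion genes, 8 rose in Bach2-deficient tumors and 0 fell, at a limma adjusted p under 0.05 over 18193 genes (0 fell at an unadjusted p under 0.05 as well). Among all genes 16.3% rose and 12.4% fell. The count of 8 became 6 with the arrays' Xist state in the fit and 5 with the melanocyte marker mean as a covariate. With the Xist state in the fit only Bach2-deficient replicate 2 is set against WT, and the melanocyte marker mean itself differed between the groups. The 8 genes that rose without these terms had groups that did not overlap, a pattern shown with Bach2-deficient higher by 11.2% of all genes. The median log2 change was 2.21 over the 10 genes and -0.06 over all genes. All 5 leukocyte genes rose, with a median change of 2.78, and 3 of the 5 vessel-wall genes rose, with a median of 1.73. The vessel-wall genes that did not pass were the selectins, Sele and Selp. At the level of probe sets, 14 of 19 rose and 0 fell, against 14.1% and 10.1% of all probe sets.

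**Figure D1:**
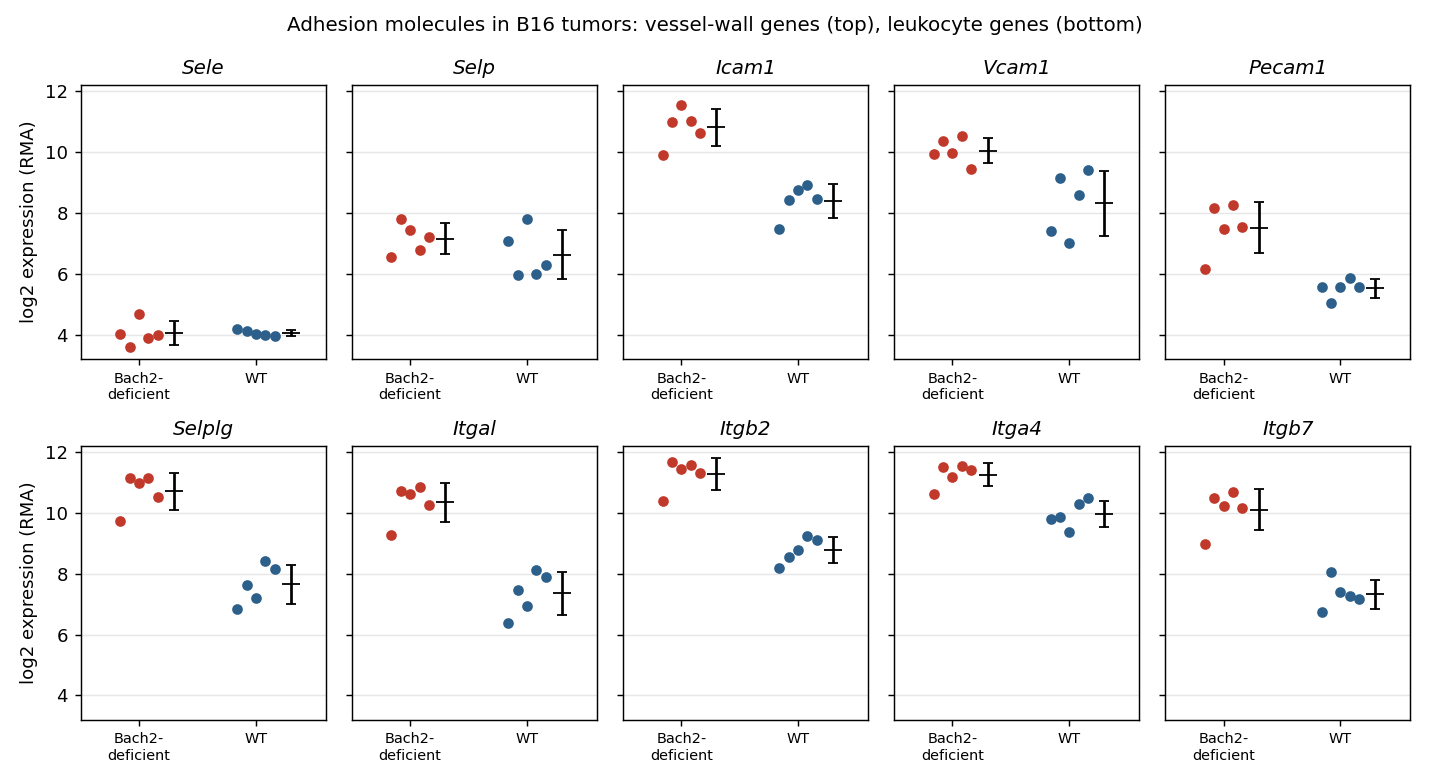
Log2 expression (RMA, vertical axis) of each gene in 5 Bach2-deficient (red) and 5 WT (blue) tumors, by the probe set that stands for it; points are arrays in replicate order, and the black mark is the mean with 1 SD. The groups are apart for 8 genes and overlap for Sele and Selp.

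Selplg, the leukocyte ligand of the selectins, read 9.73, 11.16, 10.98, 11.14 and 10.51 in Bach2-deficient tumors, replicates 1 to 5, and 6.84, 7.63, 7.21, 8.40 and 8.14 in WT tumors (log2). Every Bach2-deficient array lay above every WT array, with replicate 1 the lowest of its group. The gene rose by 3.06 (SE 0.35), or 8.33-fold, with a limma adjusted p of 0.000371. No other gene of the 10 changed by more, and 99.4% of all genes had a smaller signed change.

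Itgal, the α chain of LFA-1, read 9.28, 10.71, 10.62, 10.85 and 10.26 in Bach2-deficient tumors and 6.37, 7.46, 6.93, 8.13 and 7.88 in WT tumors. The groups were well apart, and replicate 1 was again the lowest Bach2-deficient array. The rise was 2.99 (SE 0.38), 7.95-fold, at a limma adjusted p of 0.000574. Its second probe set, 1425367_at, gave 7.23 ± 0.74 in Bach2-deficient tumors and 4.53 ± 0.40 in WT tumors (SD, n = 5 each), a change of 2.70, so both probe sets moved alike. Itgb2, the β chain that LFA-1 shares with the myeloid integrins, read 10.39, 11.67, 11.45, 11.59 and 11.30 in Bach2-deficient tumors and 8.19, 8.55, 8.79, 9.23 and 9.12 in WT tumors. It rose by 2.50 (SE 0.27), 5.67-fold (limma adjusted p = 0.000308), with no overlap.

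Itgb7, which pairs with Itga4 and with Itgae, read 8.98, 10.49, 10.21, 10.68 and 10.17 in Bach2-deficient tumors and 6.76, 8.06, 7.41, 7.27 and 7.16 in WT tumors. It rose by 2.78 (SE 0.33), 6.85-fold (limma adjusted p = 0.000405). The lowest Bach2-deficient array, replicate 1, was still above the highest WT array, replicate 2. Itga4, the α4 chain, read 10.62, 11.50, 11.18, 11.55 and 11.42 in Bach2-deficient tumors and 9.80, 9.85, 9.37, 10.29 and 10.48 in WT tumors. Its rise was the smallest of the 8, at 1.29 (SE 0.24) or 2.45-fold, with a limma adjusted p of 0.00314 and only a narrow gap between the groups. All 5 Itga4 probe sets had a positive change, from 0.76 to 1.29, and 3 of them passed over all probe sets. The Itga4 call was lost with a term for Xist (1.54, adjusted p = 0.0569) and with the melanocyte marker mean as a covariate (1.00, adjusted p = 0.133).

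Icam1, the ligand of LFA-1, had the largest change of the vessel-wall genes. It read 9.90, 10.97, 11.55, 11.04 and 10.64 in Bach2-deficient tumors and 7.46, 8.42, 8.75, 8.90 and 8.46 in WT tumors. The lowest Bach2-deficient array stood above the highest WT array, and replicate 1 was the lowest in each group. Icam1 rose by 2.42 (SE 0.33), 5.37-fold, with a limma adjusted p of 0.000801.

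Vcam1, the ligand of VLA-4, read 9.95, 10.36, 9.97, 10.52 and 9.45 in Bach2-deficient tumors and 7.40, 9.15, 7.02, 8.60 and 9.42 in WT tumors. WT tumors spread over more than 2 log2 units, and the highest of them nearly reached the lowest Bach2-deficient tumor. The rise was 1.73 (SE 0.45), 3.32-fold, at a limma adjusted p of 0.0171. Its other probe sets, 1451314_a_at (change 1.11) and 1415989_at (1.08), also passed over all probe sets. With the Xist term (2.04, adjusted p = 0.150) or the melanocyte covariate (1.59, adjusted p = 0.226) the call of Vcam1 was lost.

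Pecam1 was read by 1 probe set, of the _a_at kind that matches several transcripts of a gene. It read 6.16, 8.18, 7.46, 8.26 and 7.54 in Bach2-deficient tumors and 5.58, 5.03, 5.57, 5.86 and 5.57 in WT tumors. WT tumors were close to each other, and Bach2-deficient replicate 1 stood nearest to them. The gene rose by 2.00 (SE 0.36), 4.00-fold (limma adjusted p = 0.00277). With the melanocyte covariate the change was 1.03 and the adjusted p 0.108.

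Sele stayed dim throughout. It read 4.03, 3.61, 4.69, 3.91 and 4.00 in Bach2-deficient tumors and 4.19, 4.11, 4.03, 3.99 and 3.95 in WT tumors, all under 4.98, the 30% quantile of the genes' mean values (genes with a group mean under it are called dim here). The groups overlapped, and the change of -0.01 had a 95% interval from -0.39 to 0.38 (limma adjusted p = 0.983). At such a level neither presence nor absence can be read, and a change may go unseen.

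Selp depended on the probe set. The brightest, 1449906_at, read 6.56, 7.81, 7.44, 6.77 and 7.20 in Bach2-deficient tumors and 7.09, 5.96, 7.81, 5.99 and 6.28 in WT tumors. The groups overlapped widely, and the change of 0.53 (95% interval -0.31 to 1.37) did not pass (limma adjusted p = 0.315). Probe set 1420558_at, which the annotation ties to the same accession, read 4.69, 7.71, 6.70, 6.35 and 6.85 in Bach2-deficient tumors and 4.58, 3.97, 4.00, 4.89 and 3.53 in WT tumors. There 4 Bach2-deficient arrays stood above all WT arrays, replicate 1 did not, and the change was 2.26 (SE 0.49, limma adjusted p = 0.00815 over all probe sets). The third, 1440173_x_at, changed by 0.98 without passing (adjusted p = 0.104). Averaged over the 3 probe sets, Selp rose by 1.26 (adjusted p = 0.0192). The WT means of 1420558_at (4.20) and 1440173_x_at (3.58) were dim, and the sizes of both changes are therefore inexact.

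**Figure D2:**
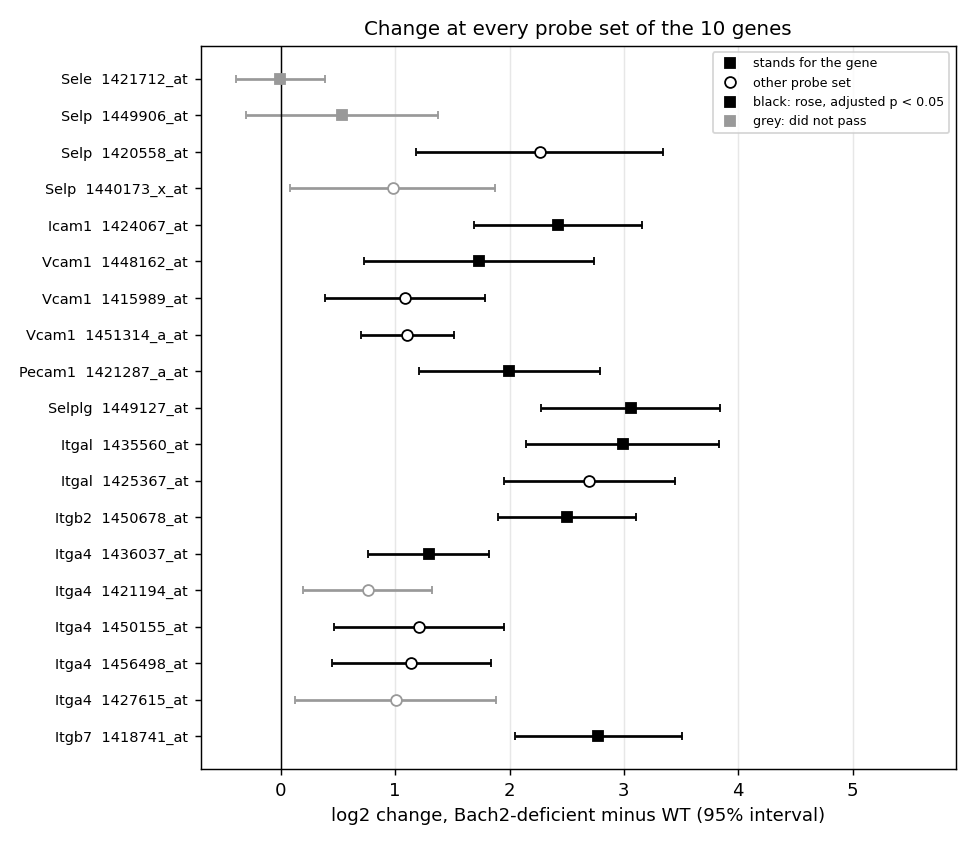
Log2 change (Bach2-deficient minus WT, horizontal axis) of all 19 probe sets with its 95% interval; squares stand for the gene, open circles are further probe sets, black rose and grey did not pass over all probe sets. The 3 Selp probe sets run from 0.53 to 2.26, while the 2 Itgal probe sets give 2.70 and 2.99.

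Array by array, Bach2-deficient replicate 1 was the lowest of its group for all 5 leukocyte genes and for 8 of the 10 genes. WT replicate 1 was the lowest of its group for 4 of the 5, and WT replicate 4 the highest for 3. With group means subtracted, Pearson's r over the 10 arrays ran from 0.44 (Itga4 with Itgb7) to 0.99 (Selplg with Itgal) among the 10 pairs of leukocyte genes, as a description of arrays that share their labelling and normalization. Among pairs of vessel-wall genes r ran from -0.70 (Selp with Vcam1) to 0.54 (Icam1 with Pecam1). Between a vessel-wall and a leukocyte gene it ran from -0.31 (Selp with Itga4) to 0.84 (Icam1 with Itgb2), so Icam1 followed Itgb2 more closely than any vessel-wall gene. Bach2-deficient replicate 1 also had the highest melanocyte marker mean of its group, 12.4, and the part of this in the low values was not tested. On Bach2-deficient replicate 2, the array that shares high Xist with WT, the 8 genes that rose all stood above every WT array, by 1.54 (Itga4) to 3.52 (Selplg) over the WT mean.

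Genes most alike in the same measure (Pearson's r over 10 arrays, group means subtracted) were found among all 18193. For Itgal they were Selplg (0.99) and Rassf5 (0.99), an effector of the GTPase Rap1. Itga4 was followed by Rftn1 (0.99), a lipid raft protein, and Sting1 (0.99), a sensor adaptor of cytosolic DNA. Itgb2 was followed by Clec4a3 (0.98), a myeloid lectin, and Prkcb (0.98), a protein kinase C. Icam1 lay nearest to Pilra (0.95) and Atf3 (0.95), and Vcam1 to Il18r1 (0.97), an interleukin-18 receptor chain. Similar values were reached by the dim Sele with 4933432K03Rik (0.97), by Pecam1 with Phf2 (0.99) and by Selp with Cfap206 (0.93). A high r here therefore does not set apart genes of shared function. Each is the best of all other genes over few arrays, so no test is given.

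Ligands and receptors were then set against each other as differences within an array, in 17 pairs tested by 2-sided exact permutation with Benjamini-Hochberg adjustment over the 17. Of these, 11 passed. A gene that was dim in both groups, Sele or Cdh5, stood in 6 of the pairs and in 4 of the 11 that passed. Differences against such a gene mostly restate the change of its partner and are not read further. Of the remaining 11 pairs 7 passed. Icam1 minus Itgb2 differed by -0.08 between Bach2-deficient and WT tumors (SE 0.20, exact adjusted p = 0.706), and Icam1 minus Itgal by -0.57 (SE 0.25, exact adjusted p = 0.0623). Vcam1 minus Itga4 differed by 0.44 (SE 0.40, exact adjusted p = 0.337). For these ligand and integrin pairs no unequal change was detected, which does not show that the changes were equal. Selp minus Selplg differed by -2.53 (SE 0.64, exact adjusted p = 0.0150) with the brightest Selp probe set. With 1420558_at in its place the difference was -0.80 (exact adjusted p = 0.173), and with the mean of the 3 probe sets -1.80 (exact adjusted p = 0.0135), so this result depended on the probe set.

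By the probe sets that stand for the genes, chains of the same integrin did not change by the same measured amount. Itga4 minus Itgb7 averaged 1.15 ± 0.31 in Bach2-deficient tumors and 2.63 ± 0.70 in WT tumors (SD, n = 5 each), a difference of -1.48 (SE 0.34, exact adjusted p = 0.0150). Itgal minus Itgb2 differed by 0.49 (SE 0.18, exact adjusted p = 0.0368), with groups that overlapped. The second Itgal probe set, 1425367_at, changed by 2.70 and Itgb2 by 2.50, and that pair was not tested. Against Ptprc, the pan-leukocyte phosphatase CD45, which itself rose by 1.65 (SE 0.25), 4 of the 5 leukocyte genes changed by more. The excess was 1.41 for Selplg, 1.34 for Itgal and 0.86 for Itgb2 (exact adjusted p = 0.0150 each), and 1.13 for Itgb7 (exact adjusted p = 0.0270). Itga4 minus Ptprc differed by -0.35 (SE 0.24, exact adjusted p = 0.207). Because probe affinity and background vary, unequal measured changes need not be unequal changes of RNA.

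Cdh5, the junction cadherin of endothelium, fell by 0.66 (SE 0.17, limma adjusted p = 0.0156), although both of its means, 3.93 in Bach2-deficient and 4.59 in WT tumors, were dim.

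**Figure D3:**
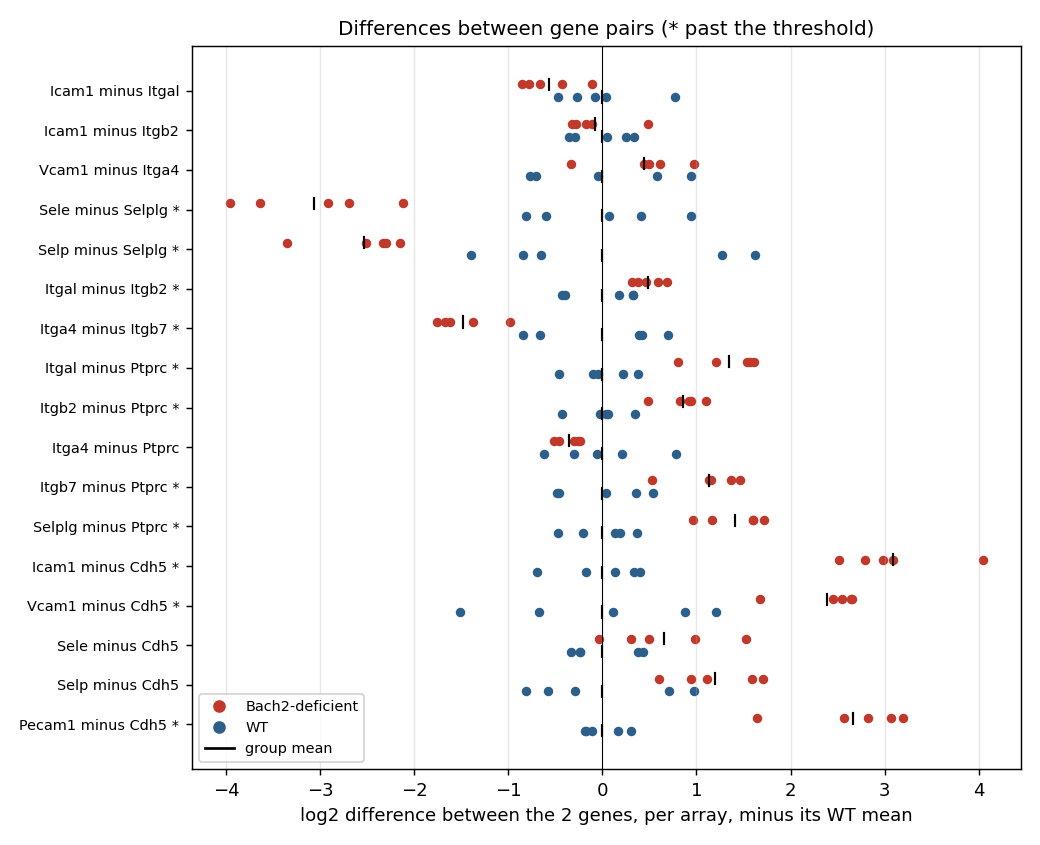
Log2 difference between the genes of each pair on every array (horizontal axis), less its WT mean; red points are the 5 Bach2-deficient and blue points the 5 WT tumors, black ticks are group means, and a star marks the 11 pairs past the threshold. Icam1 minus Itgb2 overlaps between groups, whereas Itga4 minus Itgb7 lies apart; pairs with Sele or Cdh5 set a gene against a dim one.

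Markers of cells that can carry these molecules also differed between the groups. All counts on lists below stand beside the 16.3% of all genes that rose and the 12.4% that fell. Of 15 endothelial markers 6 fell and 1 rose, with a median change of -0.66, and their mean level ran from 5.39 to 5.65 in Bach2-deficient tumors and from 5.86 to 6.09 in WT tumors. The riser was Flt1, a VEGF receptor (2.06), and 4 of the markers were dim in both groups. Of 6 platelet and megakaryocyte markers 1 rose and 2 fell, with a median of -0.45 and a mean level of 6.79 to 7.06 in Bach2-deficient tumors and 7.03 to 7.65 in WT tumors. All 7 pan-leukocyte markers rose, with a median of 1.65 and a mean level of 12.3 to 12.9 in Bach2-deficient tumors and 10.7 to 11.7 in WT tumors. The share of these lists in the changes of the adhesion genes was not tested.

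Among leukocyte types, all 8 T cell markers rose (median 2.69), as did all 3 NK cell markers (3.51) and 5 of 6 macrophage and monocyte markers (1.99). Of 5 eosinophil markers 4 rose (median 2.87), of 5 dendritic cell markers 3 (1.12), of 6 mast cell markers 2 (0.66) and of 5 neutrophil markers 2 (1.14). None of the 4 B cell markers passed in limma, 0 also at an unadjusted p under 0.05 (median -0.05). The mean of the T cell markers ran from 9.86 to 11.1 in Bach2-deficient tumors and from 6.49 to 8.26 in WT tumors, with no overlap. Among other cells, 2 of 7 fibroblast, 3 of 9 melanocyte and 3 of 4 red cell markers fell (medians -0.18, -0.29 and -3.81).

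Of 52 other adhesion genes, on 4 lists, 25 rose and 7 fell, against 16.3% and 12.4% of all genes, with a median change of 0.45. With the Xist term 13 rose and 1 fell, with the melanocyte covariate 6 and 1. Integrin chains other than those above gave 6 rises and 1 fall of 11. Itgam, the αM chain that pairs with Itgb2 on myeloid cells, rose by 2.68 (SE 0.35), with a dim WT mean of 4.72. Itgax, the αX chain of dendritic cells and macrophages, rose by 2.27 (SE 0.36), and Itga1, a collagen-binding chain, by 1.69 (SE 0.28). Itgae, the αE partner of Itgb7, rose by 1.28 (SE 0.39). Itga6, a laminin-binding chain, fell by 0.84 (SE 0.16), and Itgb1, the common β1 chain that completes VLA-4, changed by 0.09 (95% interval -0.10 to 0.29) without passing.

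Among other vessel-wall molecules 1 of 13 rose and 5 fell, with a median of -0.30. Cdh5 and Esam, both among these falls, are also counted among the endothelial markers that fell. Icam2, which endothelium and leukocytes carry and LFA-1 binds, rose by 1.14 (SE 0.26). Cd99l2, a molecule of leukocyte passage, fell by 1.78 (SE 0.19), the sialomucin gene Podxl by 1.49 (SE 0.27) and the endothelial junction gene Esam by 0.91 (SE 0.19; dim Bach2-deficient mean of 4.87). Madcam1, the ligand of the Itga4 and Itgb7 pair, was dim at 4.23 ± 0.13 in Bach2-deficient tumors and 4.14 ± 0.17 in WT tumors (SD, n = 5 each) and did not pass.

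On the list of other selectin ligands and their glycosylation 6 of 14 measured genes rose and 0 fell (limma, 0 also unadjusted), with a median of 0.43. Fut4, a fucosyltransferase, rose by 2.44 (SE 0.32), Tpst2, a tyrosine sulfotransferase, by 1.03 (SE 0.19), and Glg1, which encodes an E-selectin ligand, by 0.79 (SE 0.15). Fut7, the other fucosyltransferase of selectin ligands, changed by 0.32 and did not pass.

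Regulators of integrin activation inside the cell numbered 14, of which 12 rose and 1 fell, with a median of 1.44. The rises included Sipa1 (1.05), which switches Rap1 off and restrains activation. Skap1, an adaptor of LFA-1 activation in T cells, rose by 3.67 (SE 0.32; dim WT mean of 4.33). Fermt3, the kindlin of blood cells, rose by 1.92 (SE 0.23) and Tln1, talin, by 1.52 (SE 0.18). Rapgef1, an exchange factor for Rap1, fell by 0.28 (SE 0.09). Of 20 measured cytokines, receptors and signalling genes of the pathways that control vessel-wall adhesion molecules, 17 rose and 0 fell (limma, 0 also unadjusted), with a median of 1.82. The rises included Nfkbia (0.98) and Tnfaip3 (1.91), which encode inhibitors of NF-κB signalling. Ifng rose by 5.84 (SE 0.60; dim WT mean of 4.95), Irf1, a transcription factor downstream of interferon-γ, by 3.24 (SE 0.25), and Lta, lymphotoxin α, by 2.42 (SE 0.27; dim WT mean of 3.69).

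**Figure D4:**
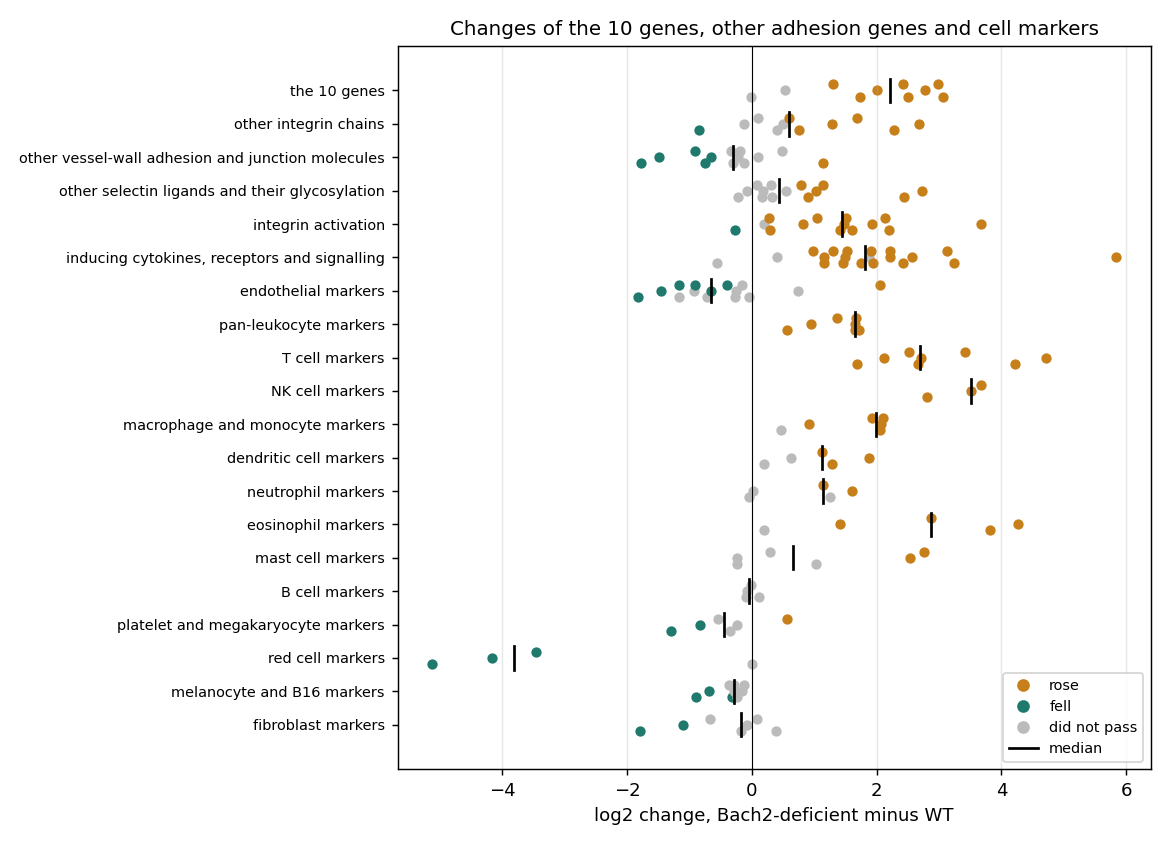
Log2 changes (Bach2-deficient minus WT, horizontal axis) of the 10 genes and of each list; points are genes, coloured by whether they rose, fell or did not pass, and black bars are medians. The median of the 10 genes is 2.21, that of other vessel-wall molecules -0.30 and that of endothelial markers -0.66.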

How the data were processed

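RNA of 10 tumors was measured on 1-colour Affymetrix mouse genome arrays. Per the submitters' processing notes, the authors made the deposited log2 values with RMA (background correction, quantile normalization, probe summary) and Partek (versions not given in the sources used here). That the scale is log2 follows from their range, 1.99 to 14.4. They were used as deposited. Of 45101 probe sets, 34945 had 1 symbol, 932 several, 9160 none and 64 were controls. The brightest probe set by mean over all arrays stood for each of 18193 genes. The genotype effect (Bach2-deficient minus WT, 2-sided) was estimated by lmFit and eBayes of limma 3.58.1 under R 4.3.3 and adjusted by Benjamini-Hochberg over all genes, or all probe sets where said; a gene rose or fell at an adjusted p under 0.05. The fit was tested on simulated data. RMA background shrinks changes of dim genes.

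Groups came from sample titles. No label says that tumors came from separate animals: the p-values cover only the spread among these samples, and part of it may be technical. Members, lists, pairs and alternatives were chosen with earlier results of these data known. Named beside the 10 genes were Cdh5, Ptprc, the 3 called rises and 3 called falls with the smallest adjusted p of each list of adhesion and inducing genes, and Madcam1, Icam2, Itgam, Itgax, Itgae and Itgb1 where measured; Fut7, Flt1, Sipa1, Nfkbia and Tnfaip3 were added after values were seen, and each member's 2 most alike genes were found, of which some are given. Deviations of same-numbered tumors correlated at 0.01 to 0.32, so the numbers were not taken as pairs. The closing section gives the alternatives.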

Additional observations from a re-analysis of the deposited data

Results flagged for a closer look

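Among the 38 groups of 5 values (19 probe sets in 2 genotypes), 3 held an array far from the rest by Dixon's ratio, the gap to the nearest value over the range; chance alone gives about 1 in 20. Bach2-deficient replicate 1 was low for Itgb2 (1450678_at, 10.39 with the next at 11.30, ratio 0.711) and for Itga4 (1456498_at, 7.28 with the next at 8.09, ratio 0.749). WT replicate 3 was low for Vcam1 (1415989_at, 5.88 with the next at 6.90, ratio 0.887). Without Bach2-deficient replicate 1 the count of rises among the 10 genes was 8, as with all arrays, and likewise without WT replicate 3.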

How the results depend on the processing

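The count of 8 rises and 0 falls among the 10 genes was 8 to 8 and 0 to 0 when each array was left out, and 8 and 0 with median centring, repeated quantile normalization, trended robust moderation, array weights, the dim-gene filter, probe sets one by one and the replicate block. It was 9 with the mean of probe sets, 6 with the Xist term and 5 with the melanocyte covariate, where Icam1 (1.84, adjusted p = 0.0494), Selplg, Itgal, Itgb2 and Itgb7 passed. On the 6 high-Xist arrays, an alternative chosen after seeing the data with 1 Bach2-deficient tumor assumed to vary like WT, 6 rose. The Xist term leaves the same contrast, replicate 2 against WT, because every low-Xist array was Bach2-deficient. Of the other adhesion genes 20 to 27 rose and 5 to 7 fell with an array left out, 20 rose and 6 fell with the replicate block, 13 rose and 1 fell with the Xist term, 6 and 1 with the covariate, and 8 and 1 on high-Xist arrays. Pairs past the threshold numbered 10 to 13 with an array left out and 13 with probe set means. The sign of Sele turned with repeated quantile normalization (0.10) and the covariate (0.14), and ran from -0.17 to 0.10 with an array left out. The cause of these shifts was not tested, and the replicate block changed no call among the 10 genes. The list of inducing genes and the marker lists were not run under any of these alternatives. The count of pairs was run only with an array left out, median centring, repeated quantile normalization and probe set means. It was not run with the Xist term, the melanocyte covariate, array weights or the block. The other Selp probe sets set against Selplg were an alternative chosen after seeing the data.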
